A study of Mus musculus with 6 samples.

Results

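The genes described are 10 components of transforming growth factor beta (TGF-beta) signalling: the ligands Tgfb1, Tgfb2 and Tgfb3, the receptors Tgfbr1, Tgfbr2 and Tgfbr3, the latent TGF-beta binding proteins Ltbp1 and Ltbp2, and the target genes Tgfbi and Pmepa1. They were found by gene symbol among 22349 named genes of a mouse expression array. All 10 were present, with 1 probe set each except Ltbp2, which had 2, of which the brighter over the 6 arrays was used. All 10 lay above the filter on low values and were tested among 16762 genes.

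The samples were cultures of mesenchymal stem cells, stromal cells of mouse bone marrow with the capacity to become bone, cartilage or fat cells. Dense cultures were seeded with 2500000 cells and sparse cultures with 15000, and RNA was taken 1, 2 and 3 days later, with 1 array per density and day and so 3 arrays per density. All cultures were grown in the same commercial stem cell medium, and no TGF-beta or inhibitor is named in the labels. The labels give no strain, age, number of animals, passage or culture area, and no cell sorting. There were no replicate cultures, so the p-values do not rest on the spread of repeated cultures. They rest on how much a gene's density difference varied between days, or on departures from a straight line over days. The fits also drew each gene's spread towards a value estimated over all tested genes. Values are log2 units of the array signal, in which 1 unit is a 2-fold difference, and each gene is compared only with itself across arrays.

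TGF-beta ligands are secreted in a latent form, bound to their own propeptide, and mostly tethered to the matrix through a latent TGF-beta binding protein. Once released, a ligand binds the type II receptor Tgfbr2, which phosphorylates the type I receptor Tgfbr1, and this phosphorylates Smad2 and Smad3, which enter the nucleus with Smad4 and act at target genes. In stromal cells the pathway is known for driving synthesis of collagen and other matrix proteins and for restraining growth.

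The promoter windows at hand, drawn from RefSeq (GRCm38.p6), covered 7 of the 10 genes with 9 windows. Tgfb3, Tgfbr3 and Pmepa1 had none, although each passed the test of dense against sparse cultures given below. Motifs in called genes are therefore known only for Tgfbi, Tgfb2 and Tgfbr2, all higher in dense. The 250 bases before the annotated start of Tgfbi, Tgfb2, Tgfbr2 and Tgfb1 are printed, because the first 3 were higher in dense cultures while Tgfb1 did not pass the test. Capitals mark the motifs searched on both strands: the Smad half-site CAGAC (or GTCTG), the GC box GGGCGG (or CCGCCC), the E-box CACGTG and the TATA box TATAAA (or TTTATA). The marked motifs do not overlap each other. Each sequence runs 5′ to 3′ on the strand of its gene. The window of Tgfbi lies at chr13:56609336-56609585, plus strand, that of Tgfb2 at chr1:186705990-186706239, minus strand, that of Tgfbr2 at chr9:116175364-116175613, minus strand and that of Tgfb1 at chr7:25686752-25687001, plus strand.
Tgfbi: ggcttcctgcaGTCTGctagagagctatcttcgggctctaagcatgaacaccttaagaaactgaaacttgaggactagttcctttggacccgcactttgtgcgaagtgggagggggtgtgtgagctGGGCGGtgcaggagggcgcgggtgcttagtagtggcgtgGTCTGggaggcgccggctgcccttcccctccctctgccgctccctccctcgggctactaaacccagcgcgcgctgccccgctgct
Tgfb2: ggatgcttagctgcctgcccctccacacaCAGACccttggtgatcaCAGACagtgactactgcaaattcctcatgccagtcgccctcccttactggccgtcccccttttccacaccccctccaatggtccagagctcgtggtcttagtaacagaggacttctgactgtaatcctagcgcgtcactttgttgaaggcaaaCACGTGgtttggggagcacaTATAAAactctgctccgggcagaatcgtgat
Tgfbr2: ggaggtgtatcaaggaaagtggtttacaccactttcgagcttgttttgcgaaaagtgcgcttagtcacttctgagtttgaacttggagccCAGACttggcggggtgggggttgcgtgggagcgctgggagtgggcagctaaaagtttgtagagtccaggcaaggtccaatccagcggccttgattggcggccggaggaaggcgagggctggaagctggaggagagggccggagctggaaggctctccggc
Tgfb1: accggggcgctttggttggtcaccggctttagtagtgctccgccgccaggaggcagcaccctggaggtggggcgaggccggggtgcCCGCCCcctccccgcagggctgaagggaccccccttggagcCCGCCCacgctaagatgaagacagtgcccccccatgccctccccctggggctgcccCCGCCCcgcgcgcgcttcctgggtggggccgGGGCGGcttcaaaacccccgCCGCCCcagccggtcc
The Smad half-site stood in 7 of the 9 windows of these genes and in 42.2% of all 32851 windows of the table. Tgfbi and Tgfb2 had 2 each and Tgfbr2 had 1. Half-sites also stood in windows of genes that did not pass the test. The windows of Ltbp1 held 1 and 2, that of Ltbp2 held 2, and those of Tgfbr1 held 0 and 1. The window of Tgfb1 held no half-site but 5 GC boxes, a motif found in 32.7% of all windows. In its window GC made up 75.2% of bases, against a median of 52.4% over all windows. The window of Tgfb2 was the only one of the 9 with a TATA box (12.4% of all windows) or an E-box (6.02%). AP-1 sites (TGANTCA, 6.75% of all windows) and TEAD sites (GGAATG or CATTCC, 12.6%) were searched on both strands as well, and no window of these genes held one. A match is a string of letters and no measurement of binding.

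In the comparison of dense with sparse cultures, 5 of the 10 genes were higher in dense and 1 was lower at an adjusted p under 0.05 (limma with the day as a block, Benjamini-Hochberg over all tested genes). Tgfbi, Tgfbr3, Tgfb2, Tgfbr2 and Tgfb3 were higher, by 1.92-fold to 7.84-fold, and Pmepa1 was lower. Over all tested genes 8.26% were higher and 2.90% lower by the same rule. The median difference was 0.65 over the 10 genes and −0.05 over all tested genes. The dense and sparse values did not overlap for 7 of the 10 genes, as for 39.9% of all tested genes. Whether a gene's RNA differed per cell or the make-up of the cell population differed cannot be told apart in such bulk samples. The call depended on the day 2 arrays: without them 0 of the 10 genes and 0 of 16762 passed in limma, although 2531 genes had an unadjusted p under 0.05. The 6 called genes then had differences of −1.42 to 2.71 in the same directions and adjusted p-values of 0.0803 to 0.230 in limma.

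**Figure D1:**
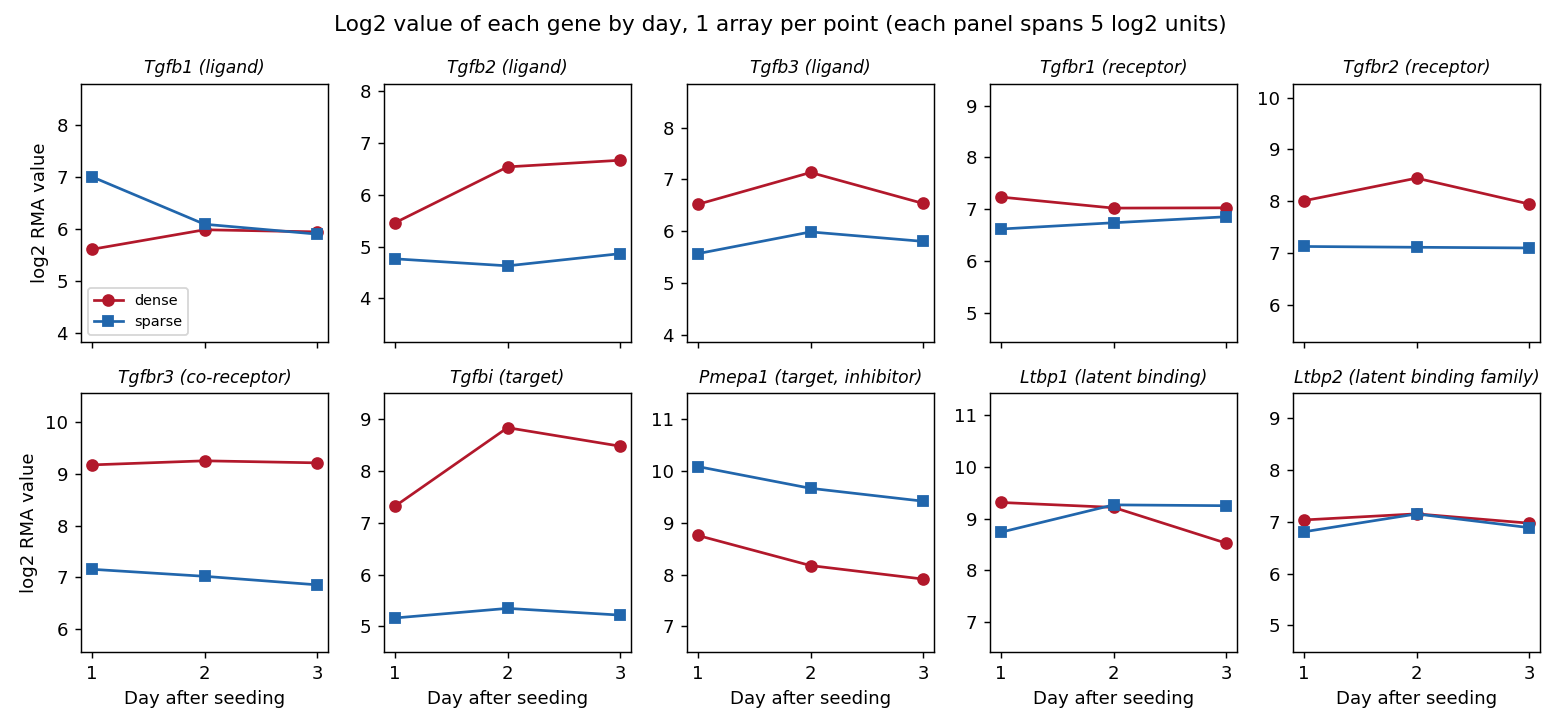
Log2 array value (y axis) of each gene by day after seeding (x axis) in dense (red circles) and sparse (blue squares) cultures, 1 array per point. Tgfbr3 and Pmepa1 kept a similar gap on all 3 days, whereas the Tgfb1 lines met after day 1 and the Ltbp1 lines crossed.

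Of the ligands, Tgfb2 and Tgfb3 were higher in dense cultures, and Tgfb1 did not pass the test. Tgfb2 had values of 5.46, 6.54 and 6.67 on days 1, 2 and 3 in dense cultures and 4.76, 4.63 and 4.86 in sparse cultures. Every dense value exceeded every sparse one, and dense day 1 lay closest to the sparse arrays. The difference was 1.47 ± 0.26 (SE, 3 arrays per density, 2.77-fold, adjusted p = 0.0277 in limma), and it was 0.70 on day 1, 1.91 on day 2 and 1.80 on day 3. The sparse values stood little above the array medians of 4.33 to 4.45, where array signals compress differences.

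Tgfb3, the ligand known for its part in palate fusion, had 6.52, 7.13 and 6.53 in dense and 5.56, 5.98 and 5.80 in sparse cultures. Day 2 was the highest day at both densities, and the groups did not overlap. The difference was 0.94 ± 0.13 (SE, 1.92-fold, adjusted p = 0.0176 in limma).

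Tgfb1, the most studied ligand and a strong regulator of immune cells, had 5.61, 5.98 and 5.94 in dense cultures and 7.01, 6.09 and 5.90 in sparse cultures. Sparse day 1 was the high array, and on days 2 and 3 the densities differed by only −0.11 and 0.04. On day 1 Tgfb1 was 2.64-fold lower in dense. Over the 3 days the difference was −0.49 with a 95% interval from −1.22 to 0.24, and it did not pass (adjusted p = 0.284 in limma). The day 1 excess in sparse cultures rests on 1 array per density and has no test of its own.

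Of the receptors, the co-receptor Tgfbr3 differed most. Tgfbr3, or betaglycan, has no kinase of its own and presents ligand, Tgfb2 above all, to Tgfbr2. Its values were 9.17, 9.25 and 9.21 in dense and 7.16, 7.02 and 6.86 in sparse cultures. The dense values hardly varied (SD 0.04, n = 3 days), and every sparse array was far below them. The difference was 2.20 ± 0.13 (SE, 4.60-fold), with the smallest adjusted p of the 10 genes (0.00412 in limma). The authors' deposited table holds p-values of an unpaired comparison, in which the day is ignored. In the authors' deposited table Tgfbr3 had p = 1.65e-05 and was the only one of the 10 genes to pass after Benjamini-Hochberg adjustment (0.0492), while 7 had an unadjusted p under 0.05.

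The type II receptor Tgfbr2, the kinase that binds ligand first, had 8.01, 8.45 and 7.94 in dense and 7.13, 7.11 and 7.10 in sparse cultures. The sparse values hardly varied (SD 0.01, n = 3 days), and the dense value was highest on day 2. The difference was 1.02 ± 0.15 (SE, 2.03-fold, adjusted p = 0.0183 in limma).

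The type I receptor Tgfbr1, which phosphorylates the Smads, had 7.24, 7.02 and 7.03 in dense and 6.62, 6.74 and 6.85 in sparse cultures. The groups did not overlap, but the gap was 0.62 on day 1 and 0.17 on day 3. The difference of 0.36 (95% interval 0.02 to 0.70) did not pass after adjustment (adjusted p = 0.133 in limma).

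Ltbp1, which links the latent ligand complex to the matrix, did not differ in one direction. Its values were 9.31, 9.22 and 8.52 in dense and 8.74, 9.26 and 9.25 in sparse cultures. It was higher in dense on day 1 and lower on day 3, with single-day differences of 0.57, −0.05 and −0.72. Over the days the difference was −0.07 (95% interval −0.68 to 0.55, adjusted p = 0.864 in limma), and without the day 3 arrays it was 0.26.

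Ltbp2, a matrix protein of the same family that, unlike Ltbp1, does not bind latent TGF-beta, had 7.04, 7.15 and 6.97 in dense and 6.81, 7.15 and 6.89 in sparse cultures. The densities overlapped and the difference was 0.11 (95% interval −0.19 to 0.40, adjusted p = 0.545 in limma). Its dimmer probe set had the opposite sign, −0.42 ± 0.23 (SE), and did not pass either (adjusted p = 0.294 in limma with every named probe set tested on its own).

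Both target genes stood at the opposite ends of the set. Tgfbi, a secreted matrix protein that binds integrins and collagens and was named for its induction by TGF-beta, had 7.32, 8.84 and 8.48 in dense and 5.16, 5.35 and 5.22 in sparse cultures. All dense arrays were far above all sparse ones, with dense day 1 the lowest of them. The difference was 2.97 ± 0.27 (SE, 7.84-fold, adjusted p = 0.00763 in limma), from 4.46-fold on day 1 to 11.2-fold on day 2.

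Pmepa1, a membrane protein induced by TGF-beta that binds Smad2 and Smad3 and damps the signal, went the other way. Its values were 8.76, 8.17 and 7.91 in dense and 10.1, 9.67 and 9.42 in sparse cultures. Every dense value lay below every sparse one, and at each density the order of days was the same. The difference was −1.44 ± 0.12 (SE, 2.72-fold lower in dense, adjusted p = 0.00719 in limma), and on single days it was −1.33, −1.49 and −1.50.

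**Figure D2:**
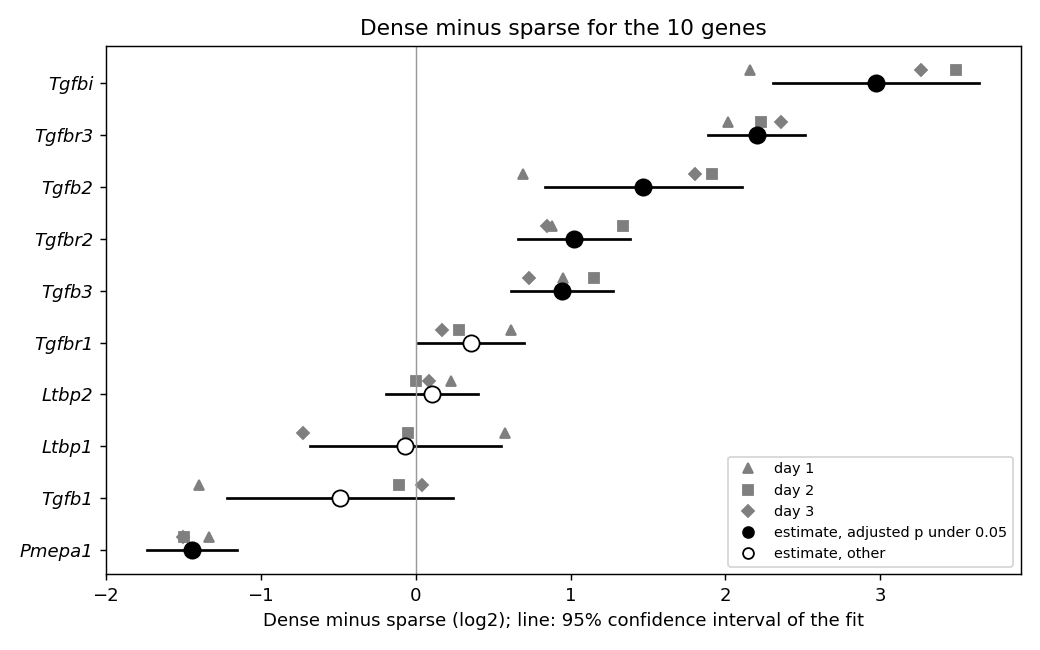
Dense minus sparse on the log2 scale (x axis) for each gene (y axis): large circles are the estimates over 3 days with their 95% confidence intervals, filled where the adjusted p was under 0.05, and small grey symbols are the single days. Tgfbi lies furthest right at 2.97 and Pmepa1 furthest left at −1.44, and the day 1 symbol of Tgfb1 stands apart from its days 2 and 3.

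On single days, without a test, 2 of the 10 genes were at least 2-fold higher in dense on day 1 (Tgfbi and Tgfbr3), 5 on day 2 and 3 on day 3. The shares over all tested genes were 3.29%, 5.89% and 6.40%. At least 2-fold lower in dense were Tgfb1 and Pmepa1 on day 1 and Pmepa1 alone on days 2 and 3, against 1.08%, 1.29% and 2.94% of all tested genes. Tgfb2 passed 2-fold from day 2 on, and Tgfb3 and Tgfbr2 did so on day 2 only.

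Straight lines over the 3 days were fitted for each density to ask which genes changed with time in culture. In limma 0 of the 10 genes passed for the slope in dense cultures, where 4.34% of all tested genes did. None passed for the slope in sparse cultures (0.0776% of all) or for the difference of the slopes (0.191%). At an unadjusted p under 0.05 there were 4, 2 and 3 of the 10 genes. The steepest values in dense cultures were 0.60 ± 0.14 per day for Tgfb2 (SE, adjusted p = 0.0608 in limma) and 0.58 ± 0.22 for Tgfbi (adjusted p = 0.209 in limma). Nearly all of that lay between days 1 and 2, when Tgfb2 differed by 1.08 and Tgfbi by 1.52, whereas from day 2 to 3 the values were 0.13 and −0.36.

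Pmepa1 had a negative slope at both densities, −0.42 ± 0.10 per day in dense (SE, adjusted p = 0.0569 in limma) and −0.33 ± 0.10 in sparse cultures (adjusted p = 0.185 in limma). The difference of these slopes was −0.09 (95% interval −0.40 to 0.23). With arrays centred on their medians the dense slope passed (adjusted p = 0.0408 in limma), as it did with a trended and robust variance (adjusted p = 0.0466), within a range from 0.0408 to 0.0786 over the alternatives.

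Tgfb1 and Ltbp1 had slopes of opposite sign at the densities. Tgfb1 had 0.17 per day in dense and −0.55 in sparse cultures, a difference of 0.72 ± 0.18 (SE, adjusted p = 0.120 in limma). Ltbp1 had −0.39 in dense and 0.26 in sparse cultures, a difference of −0.65 ± 0.17 (SE, adjusted p = 0.137 in limma). With the day as a block, which leaves 1 residual degree of freedom and raised the number of genes called from 32 to 547, Ltbp1 passed (adjusted p = 0.0466 in limma) and was the only one of the 10 to do so.

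**Figure D3:**
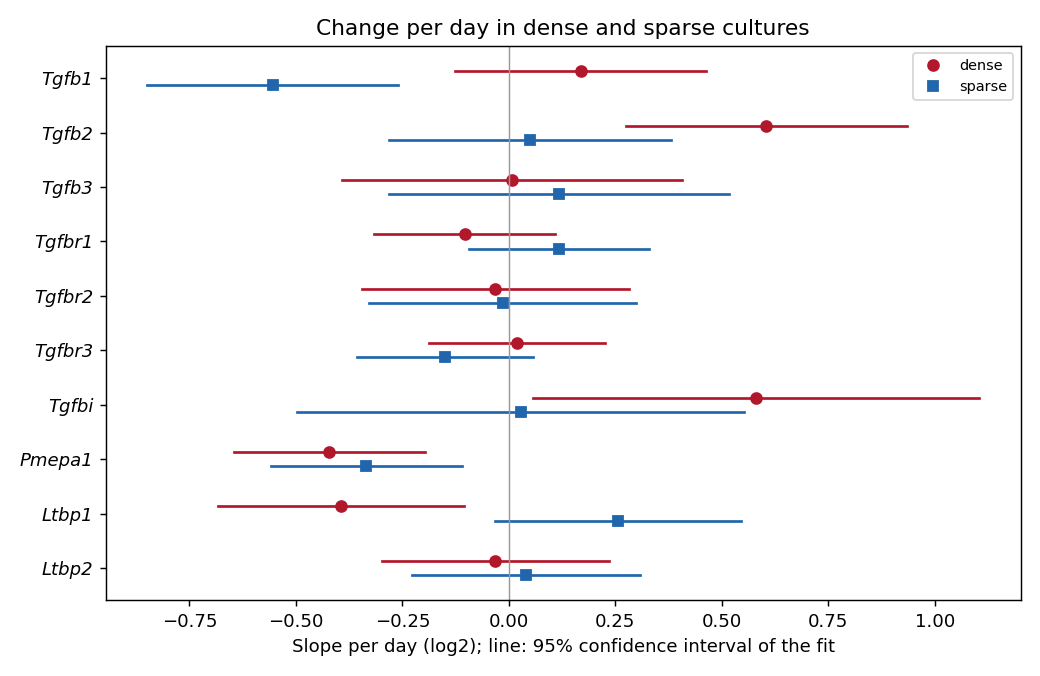
Slope per day on the log2 scale (x axis) of each gene (y axis) in dense (red circles) and sparse (blue squares) cultures, with 95% confidence intervals of the fit. The Pmepa1 slopes are negative at both densities (−0.42 and −0.33), and for Tgfb1 and Ltbp1 the signs differ between densities.

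Other genes of the pathway were read from 5 lists, of which 63 of 67 genes were tested. Higher in dense cultures were 20 and lower were 3 of the 63, where 8.26% of all tested genes were higher and 2.90% lower. Without the day as a block 21 were higher and 0 lower. Of genes of latency and activation, 8 of 14 were higher and none lower, with a median difference of 0.87. Their largest values were those of Fbn2 (1.96) and Fbn1 (1.72), fibrillins of the microfibrils that hold latent TGF-beta in the matrix. Lrrc32, which tethers latent TGF-beta at the cell surface, had 1.61, and the gelatinase Mmp2 had 1.39. Adjusted p-values of these 4 genes ran from 0.00763 to 0.0402 in limma, and with every probe set on its own Lrrc32 had 0.0502. The value of Fbn1 is that of its brightest probe set. With the mean over probe sets it was 0.82 (adjusted p = 0.0326 in limma).

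Among matrix proteins that bind TGF-beta or its precursor, 1 of 5 was higher, Emilin1 (1.45), a glycoprotein of elastic fibres that restrains processing of the TGF-beta precursor (adjusted p = 0.0130 in limma). The median of this list was 1.005. Among related receptors and co-receptors, 0 of 5 passed in limma and 1 had an unadjusted p under 0.05. Acvr1b, an activin type I receptor, had 0.48 and Acvrl1, a type I receptor of endothelium, −0.20. The list's median was 0.07.

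Smads and their regulators had a median of −0.09 and 0 of 14 higher. The 2 that were lower, Nedd4l (−0.55, adjusted p = 0.0380 in limma) and Smurf2 (−0.52, adjusted p = 0.0486 in limma), are both ubiquitin ligases that act on Smads and receptors. Neither passed without the day as a block, where 2 of the matrix proteins did, or with a trended and robust variance. Smurf2, unlike Nedd4l, also did not pass with every probe set on its own (adjusted p = 0.0537 in limma) or without the day 3 arrays (adjusted p = 0.0843 in limma). Smad6, an inhibitory Smad named here after its value was seen, had an adjusted p of 0.0653 in limma with all days and the block. It was higher without the day as a block (0.69, adjusted p = 0.0449 in limma) and without the day 3 arrays (0.91, adjusted p = 0.0120 in limma). Under the other settings Smad6 did not pass, and leaving out the day 1 arrays gave 0.48 (adjusted p = 0.136 in limma). Without the day 1 arrays 0 genes of this list passed and 3 of the matrix proteins did, and without the day 3 arrays 2 of the matrix proteins did. Without the day 2 arrays 0 of the 63 genes passed.

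Of 25 other target genes, 11 were higher and 1 lower, with a median of 0.46. The largest were the collagen-binding integrin subunit Itga11 (3.76), Col3a1 (2.86), the CDK inhibitor gene Cdkn2b (1.90) and Col1a1 (1.66), with adjusted p-values from 0.00379 to 0.0138 in limma. The 1 that was lower, named after its value was seen, was the metalloprotease Adam12 (−1.18 ± 0.22, SE, adjusted p = 0.0303 in limma). Without the day as a block Adam12 did not pass (adjusted p = 0.103 in limma).

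**Figure D4:**
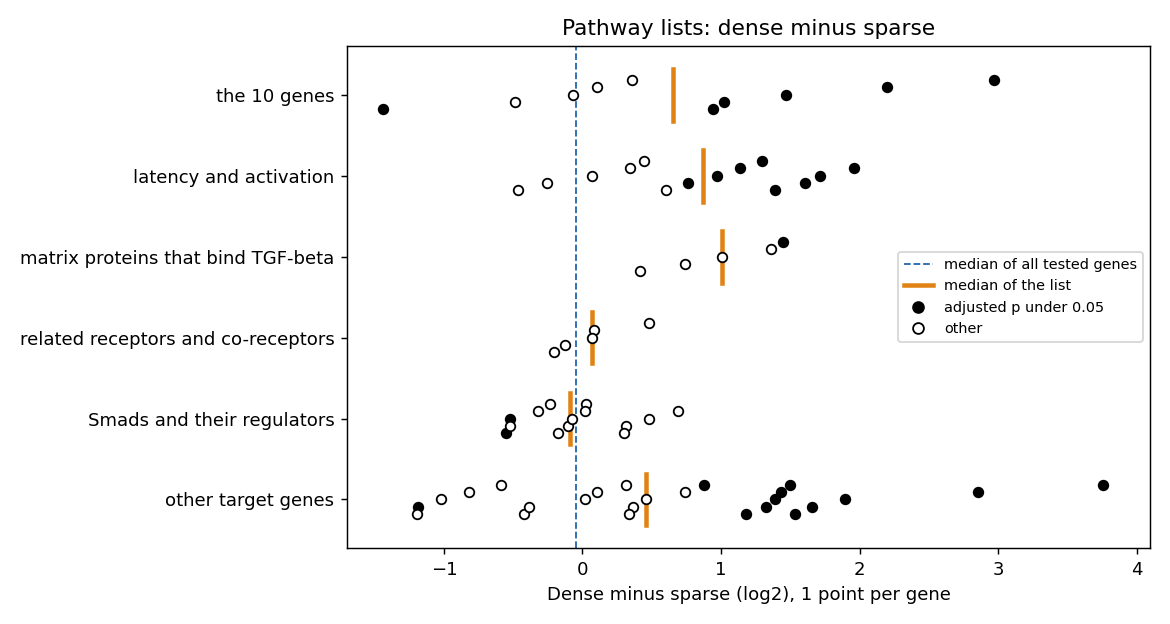
Dense minus sparse on the log2 scale (x axis) for the 10 genes and the tested genes of 5 pathway lists (y axis), 1 point per gene, filled where the adjusted p was under 0.05. Orange bars are list medians, from 1.005 for matrix proteins that bind TGF-beta (1 of 5 genes passed) to −0.09 for Smads and their regulators. The dashed line is the median of all tested genes (−0.05).

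The slopes differed between densities for 3 of the 63 list genes, against 0.191% of all tested genes. Ctgf and Cnn1, both targets, are among them and are named here after their values were seen. Ctgf, a matricellular growth factor gene, had 11.5, 10.2 and 8.95 in dense and 10.8, 11.6 and 11.8 in sparse cultures, so that the densities changed places between days 1 and 2. The slope difference was −1.81 ± 0.16 per day (SE, adjusted p = 0.0231 in limma).

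Cnn1, an actin-binding protein of contractile cells, had 9.85, 9.62 and 9.01 in dense and 8.02, 8.84 and 9.40 in sparse cultures, with a slope difference of −1.11 ± 0.14 (SE, adjusted p = 0.0483 in limma). With quantile normalization applied again, with arrays centred on their medians, without a filter and with a filter at the 50th percentile Cnn1 did not pass (adjusted p from 0.0511 to 0.0643). Both genes are targets of other pathways too.

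**Figure D5:**
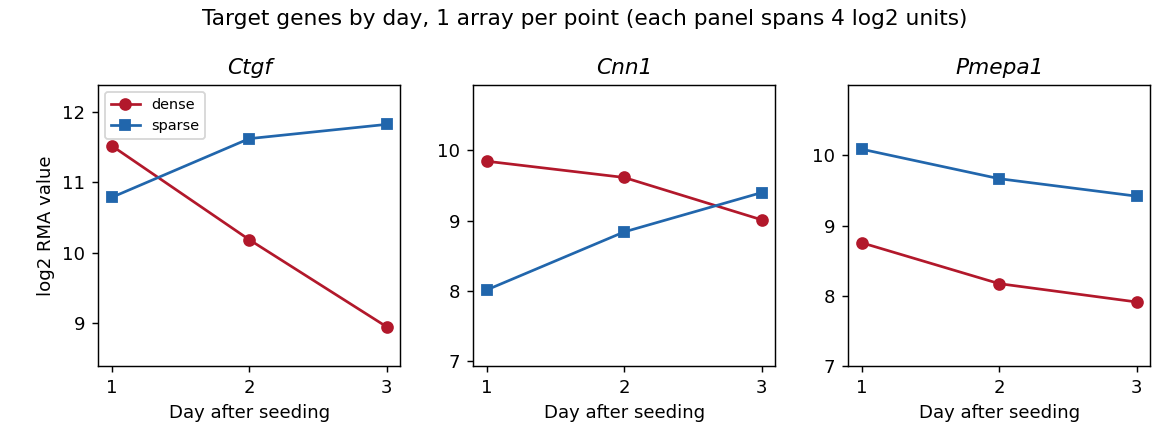
Log2 array value (y axis) by day after seeding (x axis) of Ctgf, Cnn1 and Pmepa1 in dense (red circles) and sparse (blue squares) cultures, 1 array per point. The Ctgf value on dense day 3 (8.95) lies below all its other arrays, while the Pmepa1 lines run side by side.

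Genes with the profile most like that of a member were sought for the 3 largest differences, as the smallest root mean square difference of log2 values over the 6 arrays after centring each gene. Nearest to Tgfbi were Ptgfr (0.22), a prostaglandin F receptor, Plxdc2 (0.29), Islr (0.31) and Srpx (0.31), against a median of 1.59 over all tested genes. Nearest to Tgfbr3 were the cytokine gene Il6 (0.12), the interleukin receptor chain Il13ra1 (0.14), the clotting initiator F3 (0.15) and Acadsb (0.23), against a median of 1.14. The sparse values of Il6, 2.71 to 3.07, lay below the filter floor of 3.32. Nearest to Tgfb2 were Serpine2 (0.10), Sesn3 (0.13), P2rx4 (0.13) and Igdcc4 (0.13), against a median of 0.87. Any gene with a density difference of the right size and a similar course over the days lies near by this measure.

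The cell type was checked with 3 marker lists. All 12 markers of mesenchymal stromal cells were tested, and 8 were higher and 1, Cd44, lower in dense cultures (Cd44 did not pass without the day as a block, adjusted p = 0.0622 in limma). The largest were Ly6a (2.48), Pdgfra (1.81), Col1a1 (1.66, also among the target genes) and Lepr (1.60). The summed linear signal of the list ran from 13090 to 16260 in dense and from 8455 to 9262 in sparse arrays. Bright genes, among them Vim and Col1a1, weigh most in such a sum. The other 3 markers did not pass in either direction. Thus 8 of the 12 markers, and not the list as a whole, moved with Tgfbi, Tgfbr3, Tgfb2, Tgfbr2 and Tgfb3. The part of these markers in those differences was not tested. Of 12 macrophage and leukocyte markers, 6 lay below the filter floor, among them Ptprc, Itgam and Lyz2. In limma 0 of the other 6 passed and 0 had an unadjusted p under 0.05, with Csf1r at −0.25 and Cd68 at 0.20. The sums over all 12, those below the floor included, ran from 160.1 to 171.8 in dense and from 165.2 to 173.2 in sparse arrays. Of 8 endothelial markers 3 lay below the floor and 0 of 5 passed in limma (1 at an unadjusted p under 0.05), with Esam at −0.44 and Pecam1 at −0.21. The sums over all 8 ran from 78.5 to 92.8 in dense and from 90.7 to 101.3 in sparse arrays.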

How the data were processed

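The authors deposited log2 values for 35556 probe sets on each array, which were used unchanged. RMA and Partek, without versions, are named in the submitters' processing notes; no array model was given in these sources. Per the file headers, a second table deposited by the authors holds p-values and linear fold changes for dense versus sparse. When recomputed, its p-values were those of an equal-variance unpaired comparison that ignores the day (largest gap 0.00216). Its 6 columns of per-sample values were not used here. Symbols came from that table, and the brightest probe set stood for a gene. Tested were genes whose mean reached 3.32, the 25th percentile over named genes. Array medians ran from 4.33 to 4.45; precision is limited by having 6 arrays.

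The fits used R 4.3.3 with limma 3.58.1 (2-sided p, Benjamini-Hochberg adjustment over all tested genes, threshold 0.05): density with the day as a block (leaving 2 residual degrees of freedom), and a line over the days for each density (2 as well). The labels give the day, which pairs 1 dense with 1 sparse array. Once density means were removed, the dense and sparse arrays of days 1, 2 and 3 correlated across genes at 0.127, 0.0750 and 0.0674, and pairs from different days at −0.150 to 0.109. Alternatives covered normalization, filter, probe sets, variance model, block and leaving out each day. The steps were tested on simulated data. The genes, lists and tests were chosen with earlier results of these data known. Named are the 10 genes, of each list the genes past the test (at most the 4 largest, or the 2 largest where none passed), and the 4 nearest profiles of the 3 largest differences. Genes named outside this rule are said to be so, and some results are not reported here. Promoter sequences are those of RefSeq, GRCm38.p6.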

Additional observations from a re-analysis of the deposited data

Results flagged for a closer look

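The slope over days differed between dense and sparse cultures, by the test of the difference itself, for the TGF-beta target genes Ctgf and Cnn1. The dense minus sparse difference of slopes per day was −1.81 for Ctgf and −1.11 for Cnn1. The slope was −1.29 per day in dense and 0.52 in sparse cultures for Ctgf, and −0.42 and 0.69 for Cnn1. Within one density, limma called the dense slope of Ctgf (adjusted p = 0.00895) and not that of Cnn1 (0.0671). Neither slope passed in sparse cultures (adjusted p = 0.135 and 0.0734). Over all alternatives the adjusted p of the slope difference ran from 0.00198 to 0.0479 for Ctgf and from 0.00837 to 0.0643 for Cnn1. None of the 10 ligands, receptors, binding proteins and targets met this mark in the fit without a block. With 3 arrays per density no array could be tested as an outlier.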

How the results depend on the processing

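The 6 calls among the 10 genes (5 higher, 1 lower) were also 6 without the replicate block of the day and under each other setting of normalization, filter, probe set and variance. Leaving out a day gave 0 to 6 calls, and 0 to 2522 over all genes (1870 with all days), the 0 without day 2, where the smallest adjusted p was 0.0803. Of the authors' deposited p-values, 7247 were under 0.05, and after adjustment 18 probe sets passed, 1 of them of the 10 genes. Quantile normalization applied again gave 57.1% of calls higher in dense, against 74.0%. Slopes in sparse cultures gave 13 calls, and 28 with arrays centred on their medians, 4 without a filter, 4 with a filter at the 50th percentile, 46 with every probe set on its own and 28 with a trended and robust variance. For the slope difference, 32 calls became 547 with the replicate block and, in the order of the last 4 settings, 5, 4, 54 and 80. Of the slopes that passed, 39.3% were positive in dense and 38.5% in sparse cultures, and with centring, which also moved which slopes passed, 28.1% and 21.4%. Signs that turned belonged to uncalled values: density differences of Ltbp1 (0.26 without day 3, while −0.39 without day 1 kept the sign) and Ltbp2 (−0.0172 with quantile normalization, −0.16 with the mean of probe sets), dense slopes of Tgfb3 (−0.0360) and Tgfbr3 (−0.0243) and sparse slopes of Tgfb2 (−0.00340), Tgfbi (−0.0256) and Ltbp2 (−0.0132) with centring, and Tgfbr2 slopes with quantile normalization (0.0169 dense, 0.0306 sparse). The cause of these changes was not tested. Some of the settings also had fewer arrays or another number of genes tested. Without a day the slopes leave no residual degrees of freedom, so no test was possible.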

Other observations

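Further target and matrix genes were chosen after their values were seen, for profiles over the days that looked unlike at the 2 densities. None of them passed the test of the slope difference in the fit without a block. The collagen-binding proteoglycan Dcn had 8.01, 9.04 and 9.02 in dense and 8.66, 7.86 and 6.53 in sparse cultures (slope difference 1.57, adjusted p = 0.0520 in limma). The CDK inhibitor gene Cdkn1a had 5.31, 5.30 and 5.93 in dense and 7.81, 5.57 and 4.92 in sparse cultures (slope difference 1.75, adjusted p = 0.0669 in limma). Like Tgfb1, it was high on the sparse day 1 array. The endothelin gene Edn1 had 7.13, 5.51 and 5.81 in dense and 5.91, 7.29 and 7.71 in sparse cultures (slope difference −1.56, adjusted p = 0.104 in limma). Tnc, the matrix protein tenascin C, had 10.4, 10.2 and 8.44 in dense and 9.93 to 10.2 in sparse cultures (slope difference −1.01, adjusted p = 0.135 in limma).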
